A study of Mus musculus with 2 samples.

Results

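The stress-induced epidermal keratins are filament proteins that keratinocytes make when the epidermis is wounded, inflamed or growing fast. The genes Krt6a, Krt6b, Krt16, Krt17 and Krt75 and the Krt6-like transcribed pseudogene Gm5478 were taken by their names among the array's probes outside the controls. These 6 genes, with 7 probes, stood among 23873 named genes, and all 6 were well above background on both arrays. The set was chosen by what these genes do in stressed epidermis and by an earlier view of the same differences between the arrays, so those differences are given as a description, with no test. No size of difference was set as a limit for joining it.

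The RNA came from the skin of newborn C57BL/6N mice on postnatal day 0. One group was Pla2g4e-/- (KO) and its control Pla2g4e+/+ (wild type, WT). Each group was 1 pool holding equal amounts of RNA from 5 animals, and each pool was read on 1 single-colour Agilent array with Cy3 label. No other allele or treatment is named for either pool, and the KO allele is not described further in the sources used here. Pla2g4e codes for a calcium-dependent enzyme that makes precursors of N-acylethanolamines, and the study asked how it bears on psoriatic inflammation.

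Keratins form filaments as obligate pairs of a type I and a type II chain. Basal keratinocytes make the pair Krt5 and Krt14 and replace it with Krt1 and Krt10 as they move up. In wounds and in psoriasis the upper layers make the type II chains Krt6a and Krt6b with the type I chains Krt16 and Krt17. The same chains are present without injury in parts of the hair follicle, the nail and the mouth, and Krt75 is a type II keratin of the follicle's companion layer.

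Both arrays gave usable signal over the whole range. The median spot read 241 in the KO pool and 249 in the WT pool, 80.8% and 78.0% of their probes were well above background, and 0 spots were saturated. Pla2g4e read 320 in the KO pool, against 662 in the WT pool, or 51.4% of the WT level after scaling. Whether its probe lies in the deleted part is not known, so this reading does not settle the labels. The Y-linked genes Ddx3y and Eif2s3y read 2.36 and 6.35 in the KO pool, against 2893 and 5363 in the WT pool, while Xist read 2889 in the KO pool and 796 in the WT pool. The pools thus differed in the sex of their animals. Genotype, sex and the place of the array on its slide cannot be told apart in any difference below. With 1 array per genotype no difference has a replicate check. The errors given are the scanner software's error for a spot, which leaves out the animals. This error was 0.20 log2 for the difference of each member. It is wider than the spread between repeated spots. The 341 probes printed 5 or more times and well above background had a median SD of 0.039 log2 among their spot differences.

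The type II Krt6 genes are near-identical relatives that lie side by side on chromosome 15, so the bases of their probes decide which RNA each one can report. The probes are 60 bases long and are printed 5′ to 3′, in the sense of the transcript, from the array's own design on the mouse build mm9. The first pair sets the 3′ probe of Krt6b (bases 28 to 57 of A_66_P101935, chr15:101506495-101506524, minus strand) against the probe of Gm5478 (bases 1 to 30 of A_55_P2001403, chr15:101473485-101473514, minus strand), with shared bases in capitals.
Krt6b 3′ probe: TGCTCAcaTGATGccAtCTCTGCTCTTTGt
Gm5478 probe: TGCTCAtgTGATGttAcCTCTGCTCTTTGc

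In this 30-base window 24 bases were identical. The 6 that differed, counted from 1 at the 5′ end with the Krt6b base first, were C7T, A8G, C14T, C15T, T17C and T30C. Over the full 33 bases in which the probes overlap, 26 were identical, and the longest unbroken shared run was 12 bases.

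The other Krt6b probe is one that the array's design assigns to the transcripts of both Krt6b and Krt6a. It is shown whole, with the bases it shares with a probe of the basal keratin Krt5 in capitals (A_51_P126275 at chr15:101509450-101509509 and bases 14 to 60 of A_66_P116076 at chr15:101542056-101542102, both minus strand).
Krt6b and Krt6a probe: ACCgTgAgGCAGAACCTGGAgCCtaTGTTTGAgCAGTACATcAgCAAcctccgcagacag
Krt5 probe: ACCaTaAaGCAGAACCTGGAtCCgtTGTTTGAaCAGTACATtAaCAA

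These probes shared 38 of 47 overlapping bases, or 80.9%. Their readings nevertheless stood apart between the pools. The Krt6b and Krt6a probe was 6.62-fold higher in the KO pool, and the Krt5 probe read 7511 in the KO pool against 7767 in the WT pool, a difference of 0.04 log2.

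The last pair holds the only probe of Krt6a in its own name (bases 1 to 24 of A_52_P104658, chr15:101520898-101520921, minus strand) and the probe of the neighbouring transcribed pseudogene Gm5476 (bases 37 to 60 of A_55_P2125154, chr15:101417748-101417771, minus strand), again with shared bases in capitals.
Krt6a probe: AGCAaGAAGAGCTACAGgCAgTGA
Gm5476 probe: AGCAgGAAGAGCTACAGtCAaTGA

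Of these 24 bases 21 were identical, and the remaining bases of the 2 probes do not overlap in this placement. Each pair of probes was compared in its best-scoring placement of 20 bases or more. Outside these pairs and a 64.7% match of the 3′ probe of Krt6b with that of Krt17, identity between probes of the 6 genes in that placement was 57.1% or less. No member's probe held a run of 15 bases in common with a probe of another gene on the array in the same orientation. The share of signal that comes from a relative's RNA was not measured.

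Krt6b had the largest differences among the protein-coding members. Its 3′ probe read 84513 in the KO pool, against 10648 in the WT pool. The spot was even on both arrays, with a mean of 83242 ± 8381 (SD over 64 pixels) in the KO pool and 10530 ± 1680 (SD over 65 pixels) in the WT pool. After each array was scaled to its 75th percentile, Krt6b was 8.46-fold higher in the KO pool, a difference of 3.08 log2 with a scanner error of 0.20. The probe shared with Krt6a read 5420 in the KO pool, against 872 in the WT pool, which gave 2.73 log2. Both probes thus pointed the same way, and their differences lay within 2 scanner errors of each other.

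Krt6a, whose RNA appears in mouse epidermis after wounding and is present in the follicle's companion layer, was higher as well. Its own probe read 4921 ± 492 in the KO pool, against 1336 ± 134 in the WT pool (scanner error of the signal). That was a 3.92-fold difference, or 1.97 log2, with 2 scanner errors to either side spanning 1.56 to 2.38. The ranges of Krt6a and of the 3′ Krt6b probe, 2.67 to 3.49, did not meet, while that of the shared probe, 2.32 to 3.13, met both.

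Gm5478, which RefSeq lists as a transcribed pseudogene, read 10116 in the KO pool, against 1120 in the WT pool. At 9.62-fold, or 3.27 log2, it was the largest difference among the members. Its range of 2.86 to 3.67 overlapped that of the Krt6b probe whose bases it shares.

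Krt16 is the type I chain that pairs with the Krt6 chains. Its probe (A_55_P2007756, chr11:100107408-100107467, minus strand) read 76187 in the KO pool, against 42449 in the WT pool. Krt16 was 1.91-fold higher, or 0.94 log2 with a range over 2 scanner errors of 0.53 to 1.34. The pixels of the spots did not meet at 1 SD, at 75160 ± 8052 (67 pixels) in the KO pool and 41421 ± 5134 (68 pixels) in the WT pool. Its difference fell short of 2-fold and lay below the ranges of all 3 Krt6-like genes.

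Krt17 is the type I chain of the outer root sheath that wounded epidermis also makes. Its probe (A_55_P1981994, chr11:100117535-100117594, minus strand) read 71155 in the KO pool, against 87523 in the WT pool. The difference of -0.21 log2 had a range over 2 scanner errors of -0.62 to 0.20, which holds 0. The pixels met at 1 SD, at 77267 ± 8919 (66 pixels) in the KO pool and 94888 ± 9715 (68 pixels) in the WT pool. By the software's error no difference of Krt17 was detectable, but that error is wider than the spread between repeated spots. Whether Krt17 differed by a small amount is therefore not settled.

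Krt75, the companion layer keratin, was lower in the KO pool. Its probe (A_55_P1973945, chr15:101393774-101393833, minus strand) read 1140 in the KO pool, against 2104 in the WT pool. That was 57.7% of the WT level, or -0.79 log2 with a range of -1.20 to -0.39.

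**Figure D1:**
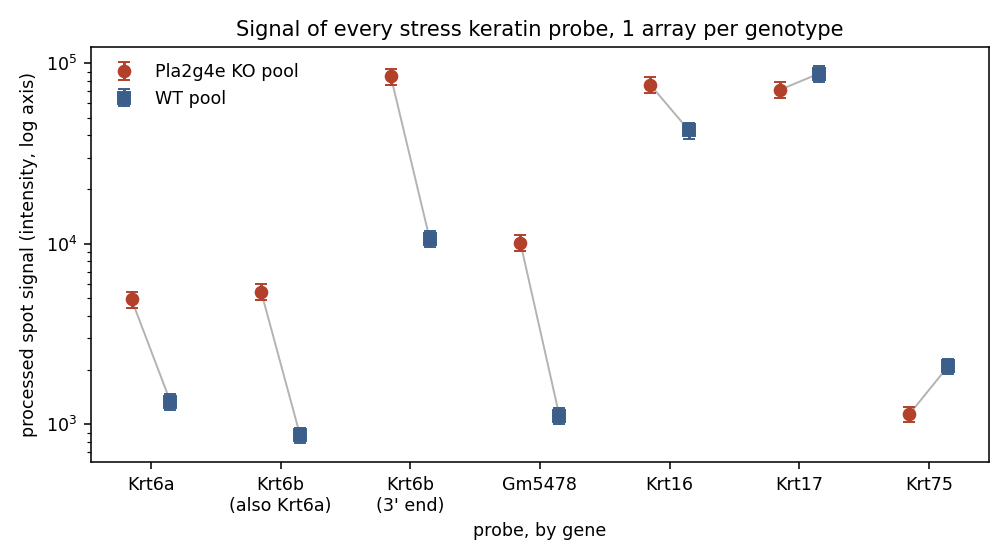
Processed signal (intensity, log axis) of each of the 7 probes in the Pla2g4e KO pool (circles) and the WT pool (squares), 1 array each, with the scanner software's error of the spot as bars. The 4 probes of Krt6a, Krt6b and Gm5478 lay far apart between the pools, Krt16 less so (76187 against 42449), Krt17 was close (71155 against 87523) and Krt75 was lower in the KO pool (1140 against 2104).

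The 6 genes therefore did not move as a block. At a fixed size of 2-fold, 3 of 6 were higher in the KO pool and 0 lower. Of the 19108 measured genes 2.25% were higher and 1.40% lower by that size, or 3.64% either way. Since these differences helped to choose the genes, nothing is read from that contrast. The members ran from -0.79 to 3.27 log2 with a median of 1.45, beside 0.01 over all measured genes. By rank among measured genes, Gm5478 was 15th from the top, Krt6b 19th, Krt6a 74th and Krt16 497th, and Krt75 was 435th from the bottom.

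Other keratins of the epidermis itself differed little. Of 11 measured keratins of basal and upper epidermis outside the stress group, 1 was at least 1.5-fold higher in the KO pool and 1 lower, where 6.74% of all measured genes were higher and 4.43% lower by that size. The median of 0.00 ranged from -0.06 to 0.13 over the alternative settings. Krt5 stood at -0.05 log2 and its partner Krt14 at 0.00, and the upper layer pair Krt1 and Krt10 stood at 0.11 and 0.14. Krt78, a keratin of upper epidermis, was the 1 higher at 0.64 and was followed by Krt23 at 0.35. Krt77, a suprabasal keratin, was the 1 lower at -1.0, followed by Krt79 at -0.20. The marker list of keratinocytes as a whole had 0 of 8 genes past 1.5-fold, with differences between -0.05 and 0.30 and summed scaled signals of 512 in the KO pool and 494 in the WT pool.

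Keratins of simple epithelia, of the embryonic periderm and of internal stratified epithelia, sites where Krt6a or Krt17 can also be made, showed 1 of 6 measured genes at least 1.5-fold higher and 0 lower. That gene was Krt18, a keratin of simple epithelia, which read 939 in the KO pool and 618 in the WT pool (0.69 log2). Both remaining listed genes, Krt4 and Krt76 of internal stratified epithelia, were left out of that count because their WT signal was not well above background. For these, the KO signal was set against the probe's own WT signal or the lowest WT signal well above background, whichever was higher. Krt76 read 38.9 in the KO pool, against 9.68 in the WT pool, and was 3.06-fold higher by that ratio. Krt4 read 24.3 in the KO pool, against 15.9 in the WT pool, and was 1.63-fold higher, which is its plain ratio after scaling. These ratios leave out the scanner error, 0.56 log2 for Krt76 and 0.41 for Krt4. The plain difference of Krt4, 0.70 log2, lay within 2 such errors of 0. Neither gene was added to the count. Krt8, the partner of Krt18, stood at 0.33, Krt19 at -0.12 and Krt7 at -0.44. The list's median of 0.08 lay between -0.04 and 0.27 over the alternative settings.

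Hair follicle keratins lay on the other side of 0. All 8 inner root sheath keratins were below 0 (median -0.67 log2), 5 of them at least 1.5-fold lower in the KO pool. Of all measured genes 4.43% were lower by that size. Those 5 were Krt26 (-1.09), Krt27 (-0.88), Krt25 (-0.82), Krt28 (-0.71) and Krt73 (-0.63), and Krt72 at -0.37 and Krt74 at -0.05 were highest. Krt74 was dim, at 19.0 in the KO pool and 21.0 in the WT pool, and its scanner error of 0.38 leaves its sign open. Of 15 measured hair shaft keratins, 13 were at least 1.5-fold lower, with a median of -1.18. The lowest were Krt34 at -1.5 and Krt87 at -1.49, and the list's other end held Krt39 at -0.56 and Krt84 at 2.34, the 1 higher member. Krt75 at -0.79 lay within the span of the inner root sheath keratins, and Krt17 at -0.21 above all but Krt74 of them.

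A marker list of the hair follicle lay mostly below 0, as did Krt75. It mixes genes of the outer root sheath with those of the hair matrix and the inner root sheath, among them Krt25 and Krt71. Of its 15 genes, 14 were below 0 and 3 were at least 1.5-fold lower, beside 4.43% of all measured genes. The list's median was -0.44 log2, with summed scaled signals of 118 in the KO pool and 159 in the WT pool. Those 3 were Msx2 (-1.06) and Hoxc13 (-0.78), homeobox factors of the hair matrix, and Krt25 (-0.82), counted above among the keratins. They are thus not markers of the outer root sheath, and the count does not describe that layer by itself. Sox9 and Lhx2, also listed, stood at -0.44 and -0.20. Whole skin was measured, so fewer cells of a type and less RNA per cell cannot be told apart. The part of the follicle's markers in the values of Krt17 and Krt75 was not tested.

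**Figure D2:**
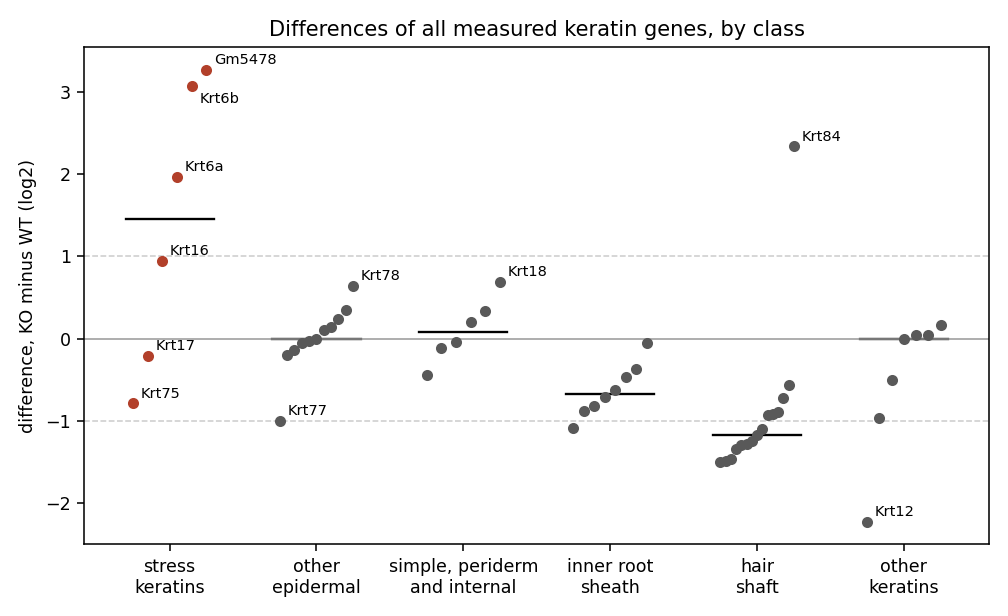
Difference between the KO and WT pools (log2, KO minus WT) of each of the 53 measured keratin genes, Gm5478 included, by class, with 1 point per gene, the class median as a line and dashed lines at 2-fold. Gm5478, Krt6b and Krt6a stood above the other epidermal keratins, and the inner root sheath and hair shaft classes lay mostly below 0.

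Among all 53 measured keratin genes, Gm5478 and Krt6b ranked 1st and 2nd from the top, Krt6a 4th and Krt16 5th, with Krt84 in between. Krt17 ranked 26th and Krt75 35th. The 3 other keratins whose difference was nearest to the members' median of 1.45 were Krt18 (0.69), Krt78 (0.64) and Krt84 (2.34). With 1 pool per genotype such likeness rests on a single difference.

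Position along the chromosome separated the members from some of their nearest keratins, in the gene order of the RefSeq assembly GRCm38.p6. On chromosome 15 the neighbours Gm5478, Krt6b and Krt6a stood at 3.27, 3.08 and 1.97 log2. Krt5 lies next to them beyond 1 lncRNA gene that has no probe here, and stood at -0.05. On the other side lie the genes Gm5414 (0.57), Gm5477, whose probe was not above background in either pool, and Gm5476. Gm5476, picked after its values were seen, read 1737 in the KO pool, against 392 in the WT pool, and was 4.72-fold higher (2.24 log2). Its probe is the one that shares 21 of 24 bases with the Krt6a probe. Krt75 lies next to Gm5476 and was lower, at -0.79, as was its keratin neighbour Krt90 at -0.97.

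On chromosome 11 Krt16 and Krt17 are adjacent genes and stood at 0.94 and -0.21. Krt14 on the side of Krt16 stood at 0.00 and Krt42, a type I keratin on the side of Krt17, at 0.04. The ranges of Krt16 and Krt17 over 2 scanner errors, 0.53 to 1.34 and -0.62 to 0.20, did not meet, so these neighbours differed by more than the spot error.

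**Figure D3:**
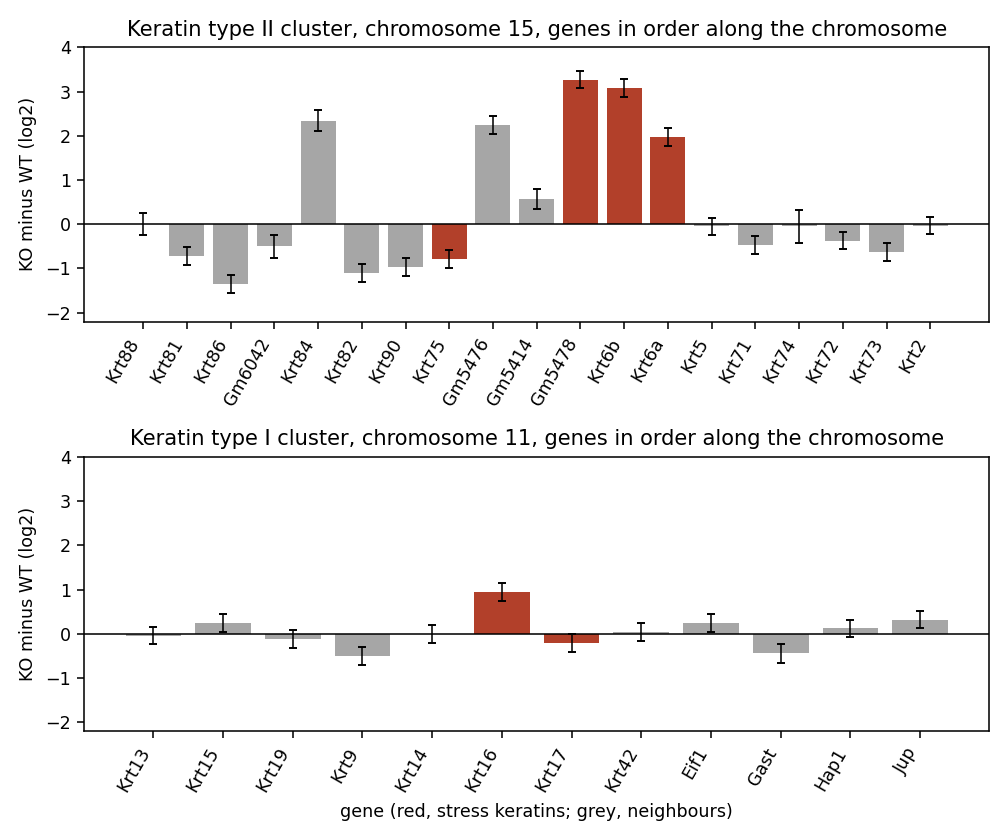
Differences between the KO and WT pools (log2, KO minus WT) of measured genes in their order along the type II keratin cluster of chromosome 15 (top) and the type I cluster of chromosome 11 (bottom), with the scanner error as bars and stress keratins in red. In the type II cluster Gm5478, Krt6b and Krt6a stand together between 1.97 and 3.27, with Krt5 at -0.05 beside them. Krt84 (2.34) and Gm5476 (2.24), which are not members, lay within that span.

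Ligands that can induce stress keratins in keratinocytes differed in both directions. Of 21 measured ligands, 3 were at least 1.5-fold higher in the KO pool and 1 lower, beside 6.74% of all measured genes higher and 4.43% lower, or 11.2% either way. Their median difference was 0.03 log2 and took values between -0.03 and 0.20 over the alternative settings. The higher ones were Ereg, an EGF receptor ligand (0.85), Il36g, an IL-1 family cytokine of keratinocytes (0.68), and Il1b (0.60). The lower one was the cytokine Tnf (-0.87), followed by Shh, a follicle ligand that induces Krt17 (-0.49). Il17a and Il22, cytokines of psoriasis, read 15.3 and 53.4 in the KO pool, against 16.4 and 62.6 in the WT pool, with differences of -0.01 and -0.14. Il17a lay close to background, and the scanner errors were 0.39 log2 for Il17a and 0.22 for Il22. Il20 and Ifng, also listed, were not well above background in either pool.

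Among 18 receptors for these ligands 3 were at least 1.5-fold higher and 0 lower, with a median of 0.12. Of all measured genes 6.74% were higher and 4.43% lower by that size. The 3 receptors were Il20ra, a subunit of the receptor for IL-20 family cytokines (1.16), Ifngr1, the ligand-binding chain of the interferon gamma receptor (1.11), and Il6ra (0.93). Egfr, the EGF receptor, stood at -0.08 with probes that differed in sign. Lowest was Ifngr2 at -0.18.

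Among 24 transcription factors that act on stress keratin genes, 2 stood at least 1.5-fold higher and 0 lower, around a median of 0.08. By that size 6.74% of all measured genes were higher and 4.43% lower. Cebpd, a C/EBP factor, read 24166 in the KO pool, against 7573 in the WT pool (1.77 log2), and Fos, an AP-1 subunit, read 7236 in the KO pool and 4054 in the WT pool (0.93). Lowest were Nfe2l2, the antioxidant factor that acts on Krt6, Krt16 and Krt17 genes, at -0.36 and Fosb at -0.32. Stat3 stood at 0.05 and the hedgehog target Gli1 at 0.02.

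Proteins that bind or anchor epidermal keratins had 1 of 14 measured genes at least 1.5-fold higher and 0 lower, with a median of 0.17. The shares over all measured genes were 6.74% higher and 4.43% lower. Dst, the hemidesmosome plakin, was the 1 higher at 0.72, followed by the small heat shock protein Hspb1 at 0.45. The desmosomal protein Pkp2 was lowest at -0.28 and Tchp at -0.14, and Dsp, the desmosomal plakin that tethers keratin filaments, stood at 0.21.

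Other genes that keratinocytes switch on in wounds and inflammation were split, some well above 0 and others close to it. Of 18 measured, 10 stood at least 1.5-fold higher in the KO pool and 0 lower, beside 6.74% and 4.43% of all measured genes. The median of the list was 0.80 log2, and 6 genes lay below 0. Highest was Slpi, a secreted protease inhibitor, which read 1769 in the KO pool, against 322 in the WT pool (2.55). S100a9, a calcium-binding alarm protein, read 16197 in the KO pool, against 3357 in the WT pool (2.36). Serpinb3a at -0.27 and Tgm1, a cross-linking enzyme of the cornified envelope, at -0.21 were lowest. Mmp9, a matrix protease on this list and on that of neutrophils, was not counted, as it was well above background in the KO pool alone (19.1, against 6.7 in the WT pool). The list was drawn up with results of these arrays known, so nothing is read from its count beside that of all genes.

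Markers of neutrophils, which also make S100a8, S100a9, Slpi and Lcn2, did not move together. Of 14 listed, 12 were measured, of which 6 were at least 1.5-fold higher in the KO pool and 1 lower, with a median of 0.59. For this and the cell types below, the shares over all measured genes were 6.74% higher and 4.43% lower. The 6 higher markers were Mmp8 (2.56), Cxcr2 (1.92), Fpr1 (1.22), Ltf (1.19), Ngp (1.0) and Ctsg (0.64). Camp was the 1 lower, at -1.0. The other measured markers lay between -0.04 (Csf3r) and 0.54 (Mpo), with the granule enzyme Elane at 0.05. Mmp8 and Cxcr2 were dim, at 119 and 79.6 in the KO pool, against 21.6 and 22.4 in the WT pool. Fpr1, Ltf and Ngp were dim too, at 149, 122 and 108 in the KO pool, against 68.0, 56.9 and 57.2 in the WT pool. The 3 neutrophil markers brighter than the median of measured genes had a median of -0.04. The summed scaled signals of the 12 measured in both pools, without Mmp9 and Ly6g, were 64.1 in the KO pool and 65.5 in the WT pool. Csf3r, at 113910 and 125040 before scaling, made up most of these sums. No keratin is on that list, and its part in the keratin values was not tested. Mouth epithelium, another site of these keratins, had 5 listed markers. Krt84 was higher, Krt76 was higher by the ratio given above, Krt4 lay within 2 scanner errors of 0, Krt36 was lower and Krt13 stood at -0.04. The 3 of them measured in both pools, without Krt4 and Krt76, had summed scaled signals of 7.46 in the KO pool and 8.05 in the WT pool. Krt13, at 14685 and 16090 before scaling and with probes that differed in sign, made up most of these sums. Markers of macrophages (1 of 8 higher, Cd163 at 1.02, and 0 lower) and of fibroblasts (0 of 8 either way) had medians of 0.26 and 0.10. T cell markers had 2 of 5 lower (Cd3g at -0.87 and Cd3d at -0.68) and 0 higher, around a median of -0.49. Skeletal muscle markers had 2 of 10 higher (Tnni1 at 1.36 and Myh3 at 0.99) and 0 lower, around a median of 0.31.

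**Figure D4:**
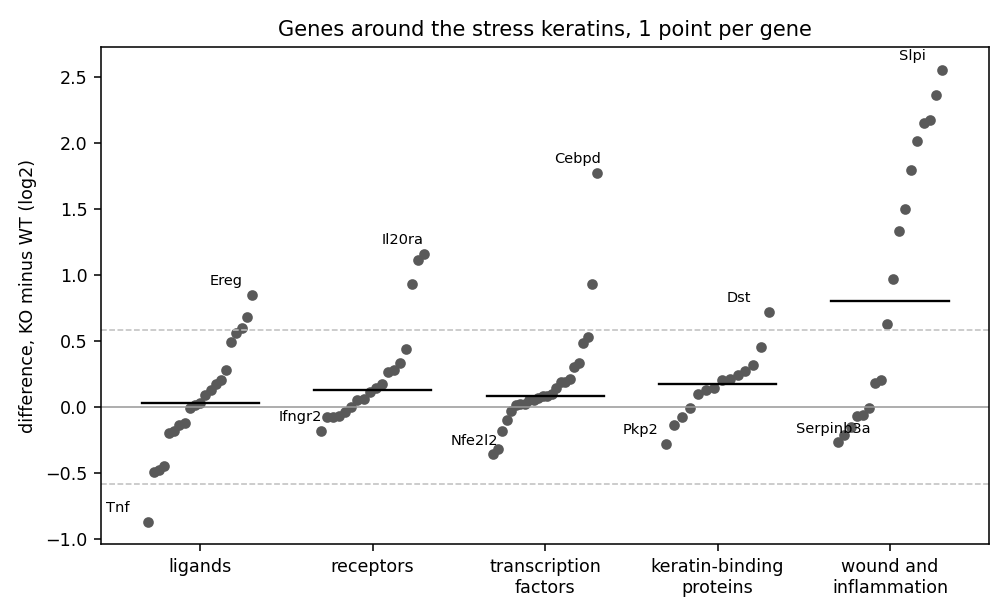
Difference between the KO and WT pools (log2, KO minus WT) of each measured gene of 5 lists around the stress keratins, with list medians as lines, dashed lines at 1.5-fold and the highest and lowest gene of each list named. Medians of ligands, receptors, transcription factors and keratin-binding proteins lay between 0.03 and 0.17, and that of wound and inflammation genes at 0.80.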

How the data were processed

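Scans were quantified in Feature Extraction 11.5.1.1, Agilent's own software, per the submitters' processing notes. The deposited files give each spot's intensity on a linear scale, background-subtracted and spatially detrended by that software, with its error, per the file headers. The deposited value table holds a ratio per spot, which equalled the processed intensity over a constant, 2273 for the KO and 2406 for the WT array, over 44397 spots. Its scale was so settled, and it is not centred by gene.

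Here log2 intensity was averaged over the spots of a probe, without control and outlier spots, and each array's 75th percentile was subtracted. Probes were named through accession, symbol or synonym in a RefSeq table of GRCm38.p6, used for names and gene order alone. Symbols of the IL-36 genes were updated after the files were read. Each gene is represented by the probe with the highest signal that passed the background flag in both pools, which left 19108 genes. Differences are KO minus WT, with the 2 spots' scanner errors added in quadrature. A range over 2 errors is the difference with 2 such errors taken off and added. With 1 array per group no test was run, and genes were counted at 2-fold (lists at 1.5-fold). A marker list's summed scaled signal is the sum of its measured genes' signals, each over the 75th percentile of its array. The number of arrays limits the precision.

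The members, gene lists and sizes were chosen with earlier results of these data known. Named were Pla2g4e, all members, of each gene list the 2 highest, the 2 lowest and every gene past 1.5-fold where a direction held 5 or fewer, the 3 nearest keratins and adjacent keratins. Cell type markers were to be given as counts and ranges. Others serve as landmarks and were picked after their values were seen. Probe overlaps are ungapped placements of at least 20 bases, chosen by the count of identical bases less 2 for each mismatch, so another placement may have a higher percent identity. The calculation was tested on simulated arrays. Alternatives covered scaling, quantile normalization, normexp background correction (limma 3.58.1, offset 50), the value table, outlier spots, the choice of probe and the size counted.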

Additional observations from a re-analysis of the deposited data

How the results depend on the processing

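Each member's difference moved by less than its scanner error of 0.20 log2 under all 8 alternatives of scaling, background correction, outliers and probe choice. Not all 8 could move them much. Only Krt6b has more than 1 probe, so the choice of probe could not change the other members. The value table holds the same intensities over a constant, and keeping outlier spots left each member's value the same. Krt6b ranged from 2.90 (mean of its probes) to 3.08, Gm5478 from 3.17 to 3.27, Krt6a from 1.91 to 1.97, Krt16 from 0.88 to 0.94, Krt17 from -0.29 to -0.21 and Krt75 from -0.84 to -0.77. The count of members at least 2-fold higher stayed at 3 under these 8. With 1.5-fold as the size counted, 4 members were higher, Krt16 being added, and 1, Krt75, was lower. With normexp, which draws low signals together, 233 of all measured genes reached 2-fold upward in the KO pool and 118 downward, against 429 and 267. With the brightest probe taken whether or not above background, which adds dim genes, they were 937 and 548, and the median of the wound and inflammation list was 1.14 in place of 0.80. The median of all genes moved by at most 0.05 log2. No paired analysis was possible because each genotype has 1 array. Having 1 array per genotype is what limits the precision of every value, since the scanner error leaves out differences between animals and between pools.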

Other observations

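Keratins outside the stress group held 2 further values picked after they were seen. Krt12, known as a type I keratin of the cornea, was the lowest of the 53 measured keratins, and its probes read 301 and 24.6 in the KO pool, against 1508 and 109 in the WT pool (-2.23 and -2.06 log2). Krt84, a type II hair keratin, read 185 in the KO pool and 38.9 in the WT pool, with a scanner error of 0.24 on its difference of 2.34. The probes of Krt13, an oral keratin at -0.04, differed in sign.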
